A study of Homo sapiens with 72 samples.

Results

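The change in RNA levels 3 h after ultraviolet (UV) irradiation was followed in cells that lack a working CSB gene. The 6 libraries compared, of 72 in the series, were the 3 labelled CSB_KO without inhibitor at 3 h and the 3 labelled CSB_KO, untreated, at 0 h, taken by their labels alone. All libraries are from HEK293, a line from human embryonic kidney, which the series design names for WT as the Flp In T-REx form with a site for inserting transgenes. The series has 4 such lines (unedited cells called WT, 1 CSB knockout and 2 STK19 knockouts), each harvested at 0 h, at 3 h and at 4 h and 20 h in DMSO or an ATR inhibitor, with 3 libraries per condition. The 12 libraries used in most of what follows came from CSB_KO and WT at 0 h and 3 h, received neither DMSO nor inhibitor, and measured polyadenylated RNA. The knockout is represented by 1 labelled line, so the loss of CSB and other traits of that line cannot be told apart. Irradiation before the 3 h harvest is named in the series design, while the 3 h libraries carry the treatment label none. The UV dose was not found in the labels or the design, and no unirradiated cells at 3 h were analysed here, so UV and 3 h in culture cannot be told apart. Nothing in the labels says that replicates were separate cultures, and p-values measure the spread between libraries. In the tests per gene this spread was estimated over all 72 libraries of the series.

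CSB, the product of ERCC6, is a DNA translocase that binds RNA polymerase II stopped at a lesion in the template strand. It recruits CSA and further factors that start transcription-coupled nucleotide excision repair. UV light makes pyrimidine dimers along the whole genome, so the number of lesions that a polymerase meets between start and end of a gene grows with the length of the gene. For that reason the genomic span of each gene, from its first to its last base including introns, was read from the GRCh38 coordinates of the deposited table and set beside its change.

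Of 19324 genes in the table, 15470 passed the filter on low counts and were tested. The CSB_KO libraries held 46.5 to 153.4 M counts at 0 h and 42.8 to 49.1 M at 3 h (M, mega). Levels are in counts per M counts (CPM) on library sizes scaled with TMM, and changes are log2 ratios of 3 h to 0 h with their standard errors. The word called marks genes with an adjusted p (Benjamini-Hochberg, over all genes tested) below 0.05 in edgeR's quasi-likelihood test. All levels are shares of the sequenced RNA, so that less RNA per cell and fewer cells with that RNA cannot be told apart, nor a rise in one gene from a fall in the rest of the RNA. Among CSB_KO replicates the counts differed with a chi-square of 5.07 to 12.8 per gene, above sampling noise. In WT, replicate 1 lay apart from the other 2, with a chi-square of 35.6 and 37.7 per gene at 0 h and of 188 and 183 at 3 h, and some comparisons with WT are therefore also given without it. Every difference from WT that is given below as called for a single gene kept its call without it. The 10 markers fixed for HEK293, among them VIM and NEFL, summed to 1665 to 1710 CPM in CSB_KO at 0 h and to 1890 to 1931 CPM at 3 h. Markers of blood cells summed to 10.7 to 11.7 CPM at 0 h and 19.0 to 20.4 CPM at 3 h, and those of squamous epithelium to 29.2 to 30.5 and 45.2 to 50.5 CPM. Of 10 blood markers 1 was at 0 in all 3 libraries of a group (CD3E at 0 h, HBB at 3 h). At 0 h 2 had a mean of at least 1 CPM, and at 3 h 3 had. Of 8 squamous markers 3 were at 0 at 0 h and 5 at 3 h, with KRT1 and IVL at both times. A mean of at least 1 CPM was reached by 2 at each time. Among markers tested, 3 of 10 for HEK293 were called higher and 5 lower, at a median log2 change of -0.04, although their sum rose. For the other cell types, 3 of 6 blood, 2 of 2 squamous, 1 of 4 fibroblast and 2 of 4 kidney tubule markers were called higher and 0 lower. Over all genes 32.0% were called higher and 29.3% lower. The summed markers of fibroblasts and kidney tubule lay at 9.99 to 11.7 and at 23.9 to 26.7 CPM over both times. The part of other cell types in the results was not tested.

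ERCC6 (ENSG00000225830, GRCh38 chromosome 10, 49454168 to 49539538, 85.4 kb) was examined first. It stood at 6.89, 6.403 and 7.62 CPM in the 3 CSB_KO libraries at 0 h and at 8.77, 8.40 and 7.73 CPM at 3 h, against 23.4, 23.99 and 23.0 CPM in WT at 0 h and 13.8, 14.9 and 14.98 CPM at 3 h. Every CSB_KO library lay below every WT library at the same time, and the remaining RNA rose in CSB_KO where that of WT fell. The log2 change was 0.26 ± 0.08 in CSB_KO (edgeR, adjusted p = 0.00409) and -0.69 ± 0.07 in WT, and the difference between the lines was 0.95 ± 0.11 (edgeR, adjusted p = 2.52e-09). The rise in CSB_KO lost its call with scaling by library totals only and without replicate 2 at 0 h, at 0.14 and 0.20.

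At 3 h, 9485 of the 15470 genes (61.3%) were called in CSB_KO, of which 4949 rose (32.0%) and 4536 fell (29.3%). Changes of at least 2-fold were fewer and mostly downward, with 608 genes that rose (3.93%) and 1166 that fell (7.54%). The median log2 change over all genes was 0.06. This balance depends on the scaling. With library totals only, 3493 genes rose and 5498 fell and the median was -0.06, and with upper quartile scaling 5825 rose and 3972 fell and the median was 0.14, so the directions of small changes are relative to a centre that moves by about 0.1. The CPM of the 2 groups did not overlap for 10501 genes (67.9%).

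The direction of these changes was graded with gene span. The median span of the genes that rose was 15.1 kb, that of the genes that fell 66.9 kb, and that of the genes not called 33.2 kb. For changes of at least 2-fold the medians were 9.30 kb among risers and 104 kb among fallers. Of 1456 genes under 5 kb, 791 rose (54.3%) and 114 fell (7.83%), with a median log2 change of 0.44. Among genes of 5 to 10 kb 938 of 1668 rose (56.2%) and 143 fell (8.57%), at a median of 0.37. In the class of 10 to 30 kb 1860 of 4256 rose (43.7%) and 710 fell (16.7%), at a median of 0.21. The balance turned at 30 to 100 kb, where 1026 of 4975 genes rose (20.6%) and 1996 fell (40.1%), and the median was -0.10. Of 2475 genes of 100 to 300 kb 262 rose (10.6%) and 1280 fell (51.7%), at a median of -0.30. The longest genes, of 300 kb and over, did not continue the trend, with 72 of 640 that rose (11.2%), 293 that fell (45.8%) and a median of -0.28. The 80% of genes in the middle of each class still covered a wide range, from -0.40 to 1.67 under 5 kb and from -1.46 to 0.30 at 100 to 300 kb. In WT, the same classes from short to long had medians of 0.43, 0.37, 0.25, -0.09, -0.41 and -0.43. Across genes, which are not independent replicates, the rank correlation of log2 change with span was -0.46 in CSB_KO and -0.50 in WT, while that with the mean level was -0.04.

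**Figure D1:**
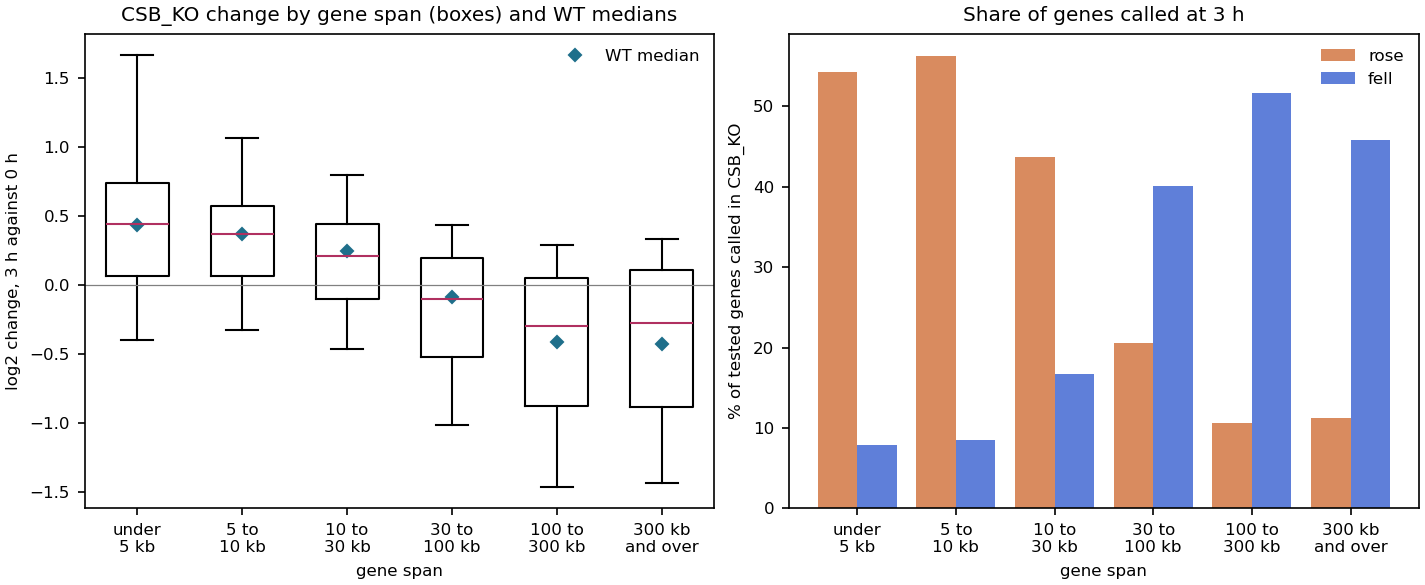
Left, log2 change at 3 h in CSB_KO by class of gene span (box, middle 50% of genes; whiskers, 10th to 90th percentile; line, median) with the WT medians as diamonds. Right, percent of tested genes in each class that rose or fell in CSB_KO. The medians step down from 0.44 under 5 kb to -0.30 at 100 to 300 kb and stay at -0.28 beyond.

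Genes of longer span also tended to have a longer exonic length (rank correlation 0.62 over 15371 genes with an exonic length), so the 2 were separated. Exonic length is the union of the exons of all transcripts of a gene in the GENCODE v29 annotation, and not the length of 1 message. Genes were split into 3 equal sets by exonic length. In the set with the shortest exonic length, up to 3.63 kb, the median ran from 0.45 under 5 kb of span to -0.02 at 100 to 300 kb. In the middle set it went from 0.31 to -0.22, and in the set above 6.39 kb from 0.30 at 5 to 10 kb to -0.35 at 100 to 300 kb. At 300 kb and over the medians of the 3 sets were -0.02, -0.13 and -0.33, so the middle set turned back. A gradient with span up to 300 kb was thus present in each set. At a given span genes of long exonic length had the lower median, -0.15 against 0.08 at 30 to 100 kb. The 383 genes with a single exon, which have no intron to transcribe, had a median of 0.13, as 116 rose and 66 fell. Spans from the GENCODE v29 annotation, tried after seeing the data, put 344 of 15371 genes in another class and left the class medians at 0.43, 0.38, 0.21, -0.11, -0.30 and -0.28.

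The gradient was visible in single libraries. The median log2 CPM of tested genes of 100 kb and over minus that of genes under 10 kb was 1.01, 0.977 and 1.01 in the 3 CSB_KO libraries at 0 h and 0.142, 0.0313 and 0.0673 at 3 h. All 3 irradiated libraries lay far below the untreated ones, and the difference of means was -0.92 (exact two-sided permutation test, p = 0.1, the smallest that 3 against 3 allows). In WT this measure stood at 1.10, 0.832 and 0.861 at 0 h and at 0.0644, -0.158 and -0.218 at 3 h, a difference of -1.03 (exact two-sided permutation test, p = 0.1). With the 0 h mean of each line subtracted, the drops of the lines overlapped (difference 0.11, exact two-sided permutation test, p = 0.3). Within same-numbered pairs, a comparison added after seeing the data, the changes ran from -0.946 to -0.871 in CSB_KO and from -1.08 to -0.990 in WT and did not overlap (exact two-sided permutation test, p = 0.1, the smallest possible). Genes of 100 kb and over held 13.5%, 13.4% and 13.5% of all counts at 0 h in CSB_KO and 10.3%, 10.1% and 10.1% at 3 h. This share changed by -3.28 percentage points in CSB_KO and by -3.99 in WT, a difference of 0.709 without overlap between the lines (exact two-sided permutation test, p = 0.1). As the 0 h mean of each line was subtracted, the spread at 0 h (SD 0.356 in WT) does not enter this p-value. Without WT replicate 1 at both times the difference was 0.466. Genes under 10 kb, the mitochondrial ones left out, rose from 21.4% ± 0.122 to 26.3% ± 0.370 of counts (SD, n = 3).

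**Figure D2:**
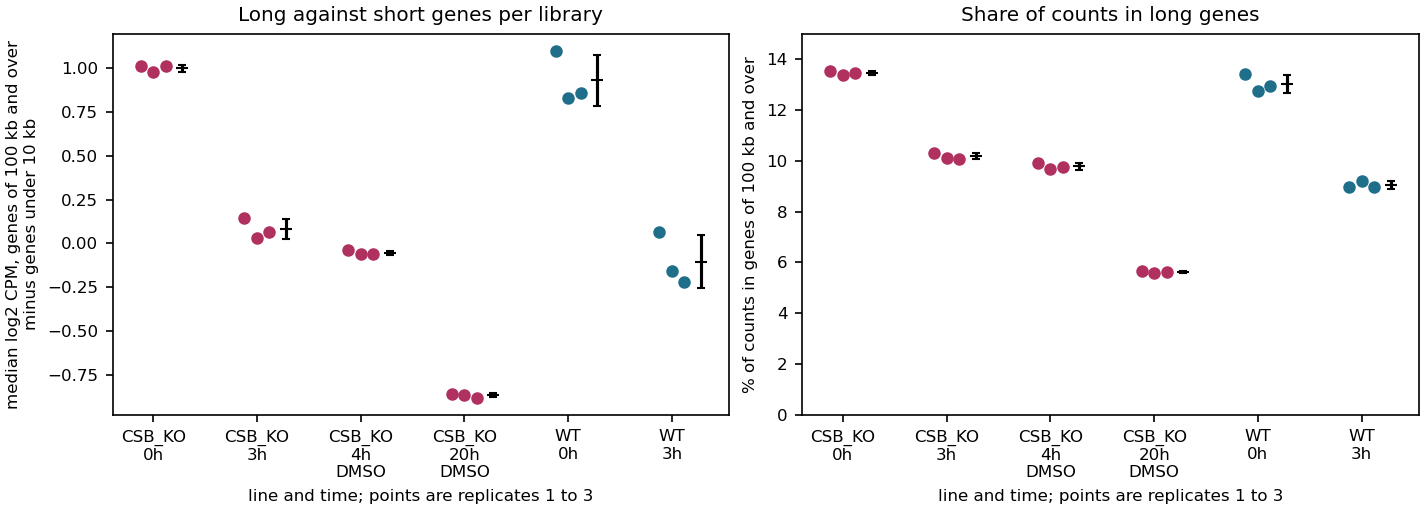
Left, median log2 CPM of genes of 100 kb and over minus that of genes under 10 kb, for each library of CSB_KO at 0 h, 3 h, 4 h and 20 h (the last 2 in DMSO) and of WT at 0 h and 3 h; right, percent of all counts in genes of 100 kb and over. Points are libraries and bars the mean ± SD of 3; CSB_KO stands at 1.00 at 0 h and 0.0803 at 3 h on the left and at 13.5% and 10.2% on the right.

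Short genes with large rises were led by IER5L, an immediate early gene, SERTAD1, a regulator of cyclin-dependent kinase 4 and E2F, and HEXIM1, which with 7SK RNA holds the elongation kinase P-TEFb inactive. IER5L (chromosome 9, 129175552 to 129178261, 2.71 kb) rose from 4.34, 4.39 and 5.30 CPM to 40.3, 52.7 and 43.2 CPM, a log2 change of 3.30 ± 0.17 (edgeR, adjusted p = 1.83e-24). SERTAD1 (chromosome 19, 40421589 to 40425992) went from 13.1, 13.3 and 12.1 CPM to 100.1, 111 and 107 CPM, a change of 3.04 ± 0.09. The groups lay far apart in both, with no library of one near the other. HEXIM1 (chromosome 17, 45148475 to 45152099) stood at 86.6, 89.1 and 104 CPM and then at 512, 498 and 508 CPM, a change of 2.44 ± 0.05 (edgeR, adjusted p = 2.18e-45), against 2.87 ± 0.05 in WT, a difference of -0.42 ± 0.06 (edgeR, adjusted p = 6.80e-07). In the class of 5 to 10 kb FOSB, a member of the AP-1 transcription factor family, went from 2.53, 2.62 and 3.11 CPM to 23.2, 22.4 and 24.9 CPM, a change of 3.12 ± 0.09 (edgeR, adjusted p = 2.84e-37). PHLDA1, a pleckstrin homology protein linked to apoptosis, rose by 2.22 ± 0.08 and the GTPase RND1 by 2.11 ± 0.07. From 10 to 30 kb VASN, a membrane protein that binds transforming growth factor beta, rose from 5.60, 4.76 and 5.05 CPM to 41.4, 51.4 and 45.3 CPM (3.17 ± 0.15; edgeR, adjusted p = 6.95e-26). HBEGF, a ligand of the EGF receptor, rose from 6.55, 6.60 and 6.88 CPM to 42.9, 41.7 and 42.9 CPM (2.67 ± 0.05), and HAP1, a partner of huntingtin, by 1.94 ± 0.11. After subtraction of the median of its span class, the largest excess among genes with a mean log2 CPM of at least 3 was that of VASN at 2.96, then IER5L at 2.86, FOSB at 2.74, SERTAD1 at 2.60 and HBEGF at 2.46.

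The promoters of 3 genes that rose, each of which holds a motif searched for, are shown to let these elements be read beside the values. They are examples and do not stand for all genes that rose, and EGR1 was not among the largest rises of its span class. They come from RefSeq (GRCh38.p14, plus strand for all 3), run from 250 bases before the start to 50 after it, and have in capitals the TATAAA element of FOSB and HEXIM1 and the 2 serum response elements of EGR1, the binding sequence of the factor SRF. FOSB occupies chr19:45467746-45468045, HEXIM1 chr17:45148225-45148524 and EGR1 chr5:138465229-138465528.
FOSB: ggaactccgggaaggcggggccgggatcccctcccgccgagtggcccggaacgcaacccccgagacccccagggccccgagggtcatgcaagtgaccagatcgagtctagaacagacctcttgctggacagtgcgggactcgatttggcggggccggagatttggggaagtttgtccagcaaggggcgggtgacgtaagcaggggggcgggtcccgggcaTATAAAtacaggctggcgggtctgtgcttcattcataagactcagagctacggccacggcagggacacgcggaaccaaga
HEXIM1: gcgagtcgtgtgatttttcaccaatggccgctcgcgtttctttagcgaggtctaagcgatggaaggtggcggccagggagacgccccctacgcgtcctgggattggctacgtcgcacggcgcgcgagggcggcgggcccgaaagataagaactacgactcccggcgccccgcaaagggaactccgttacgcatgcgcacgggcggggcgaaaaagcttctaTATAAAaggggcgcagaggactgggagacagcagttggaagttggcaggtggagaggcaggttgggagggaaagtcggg
EGR1: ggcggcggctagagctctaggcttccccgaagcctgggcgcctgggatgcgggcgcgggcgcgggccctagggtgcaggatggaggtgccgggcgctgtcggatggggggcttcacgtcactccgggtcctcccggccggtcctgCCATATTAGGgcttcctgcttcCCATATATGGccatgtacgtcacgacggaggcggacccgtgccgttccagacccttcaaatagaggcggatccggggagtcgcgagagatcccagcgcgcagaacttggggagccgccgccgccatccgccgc
TATAAA began 30 bases before the start in FOSB and 29 in HEXIM1, and the EGR1 elements 105 and 83 bases before it. Among genes under 10 kb that rose at least 2-fold, 51 of 230 promoters held TATAAA (22.2%; every motif was searched on both strands), against 238 of 2371 promoters of all tested genes under 10 kb (10.04%), 6.57% of 12137 promoters of tested genes and 11.95% of 27305 promoters in the RefSeq table. Limited to the strand of the gene and a beginning 25 to 35 bases before the start, a window chosen after seeing the data, the shares were 34 of 230 (14.8%), 5.65%, 2.21% and 2.41%. Of 950 promoters of genes that fell at least 2-fold, 68 (7.16%) held TATAAA and 14 (1.47%) held it in that window. The serum response element was in 6 of 230 (2.61%) and in 1.18% of those of all tested genes under 10 kb. The cyclic AMP element TGACGTCA was in 2.61% and 3.33%, and the AP-1 element, TGAGTCA or TGACTCA, in 6.52% and 4.18%. Of the 17 genes with the largest rises of their span class that have a promoter in the table, HEXIM1, FOSB and HAP1 held TATAAA. The serum response element was in 0 of these 17. A match describes letters only.

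Short genes that fell were the exception in their classes. PHF23, a PHD finger protein, fell from 50.9, 51.4 and 51.5 CPM to 20.6, 19.4 and 19.4 CPM (-1.38 ± 0.06; edgeR, adjusted p = 1.54e-29) and GAS1, a membrane protein of growth arrest and hedgehog signalling, from 45.3, 47.3 and 48.1 CPM to 16.9, 19.6 and 19.0 CPM (-1.34 ± 0.09). HSPA1B, an inducible HSP70 gene, is listed at a change of -1.24 ± 0.08, but its reads may be shared with its near-identical copy HSPA1A. MYC (chromosome 8, 127735434 to 127742951), the growth-promoting transcription factor, fell from 112, 114 and 109 CPM to 29.6, 26.3 and 28.1 CPM (-2.00 ± 0.06; edgeR, adjusted p = 2.78e-36), the deepest named fall at 5 to 10 kb. TRIB1, a pseudokinase that directs protein degradation, changed by -1.47 ± 0.06 and C1orf226 by -1.44 ± 0.11. The 3 largest falls at 10 to 30 kb were each deeper than in WT. TADA1, a subunit of the SAGA complex, stood at 28.2, 26.9 and 29.9 CPM and then at 9.13, 9.66 and 9.31 CPM in CSB_KO, a change of -1.59 ± 0.08 against -0.69 ± 0.08 in WT (difference -0.91 ± 0.11; edgeR, adjusted p = 2.72e-08). The zinc finger gene ZNF322 changed by -1.47 ± 0.08 against -0.67 ± 0.08, and the arrestin family gene ARRDC4 by -1.47 ± 0.07 against -0.55 ± 0.07 (edgeR, adjusted p = 1.45e-07 and 1.10e-09 for the differences).

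Among genes with a mean log2 CPM of at least 3, the deepest falls lay between 30 and 300 kb. B4GALT5 (chromosome 20, 49632945 to 49713878, 80.9 kb), a Golgi enzyme of glycosphingolipid synthesis, fell from 68.1, 67.8 and 70.8 CPM to 7.18, 8.05 and 9.09 CPM, a log2 change of -3.08 ± 0.07 (edgeR, adjusted p = 1.37e-42). The 3 values at 3 h were below the 15.5 to 16.7 CPM of WT, which had started at 66.7 to 68.4 CPM, and the difference between the lines was -1.01 ± 0.09 (edgeR, adjusted p = 8.29e-13). FBXO34, an F-box gene, fell from 24.9, 25.2 and 26.4 CPM to 4.33, 3.25 and 3.54 CPM (-2.79 ± 0.09), and FAM222B changed by -2.45 ± 0.09. FOSB, VASN, FBXO34 and FAM222B overlap other genes in the table (ERCC1, CORO7, ATG14 and ERAL1), and since counting by strand is not stated their reads are uncertain. ZNRF3 (chromosome 22, 28883572 to 29057488, 174 kb), a ubiquitin ligase that removes Wnt receptors from the membrane, fell from 31.7, 29.99 and 28.6 CPM to 4.47, 3.27 and 3.17 CPM (-3.05 ± 0.12; edgeR, adjusted p = 4.31e-31), and by -2.86 ± 0.11 in WT, with a difference of -0.20 ± 0.16 that was not called. SPRED2, which restrains RAS and ERK signalling, fell from 33.5, 34.6 and 32.6 CPM to 4.90, 4.25 and 4.53 CPM (-2.88 ± 0.09). Relative to their span class these genes stood at -2.98 for B4GALT5, -2.76 for ZNRF3, -2.68 for FBXO34 and -2.58 for SPRED2. Among genes of 300 kb and over the largest falls were smaller, at -2.18 ± 0.11 for the transcription factor BACH2, -2.13 ± 0.10 for the phosphodiesterase PDE4D and -2.13 ± 0.08 for the sphingomyelin synthase SGMS1. BACH2 went from 19.0, 19.5 and 18.7 CPM to 3.54, 4.86 and 4.17 CPM, and PDE4D, which spans 1553 kb, from 19.9, 19.0 and 20.002 CPM to 4.83, 4.33 and 4.28 CPM.

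**Figure D3:**
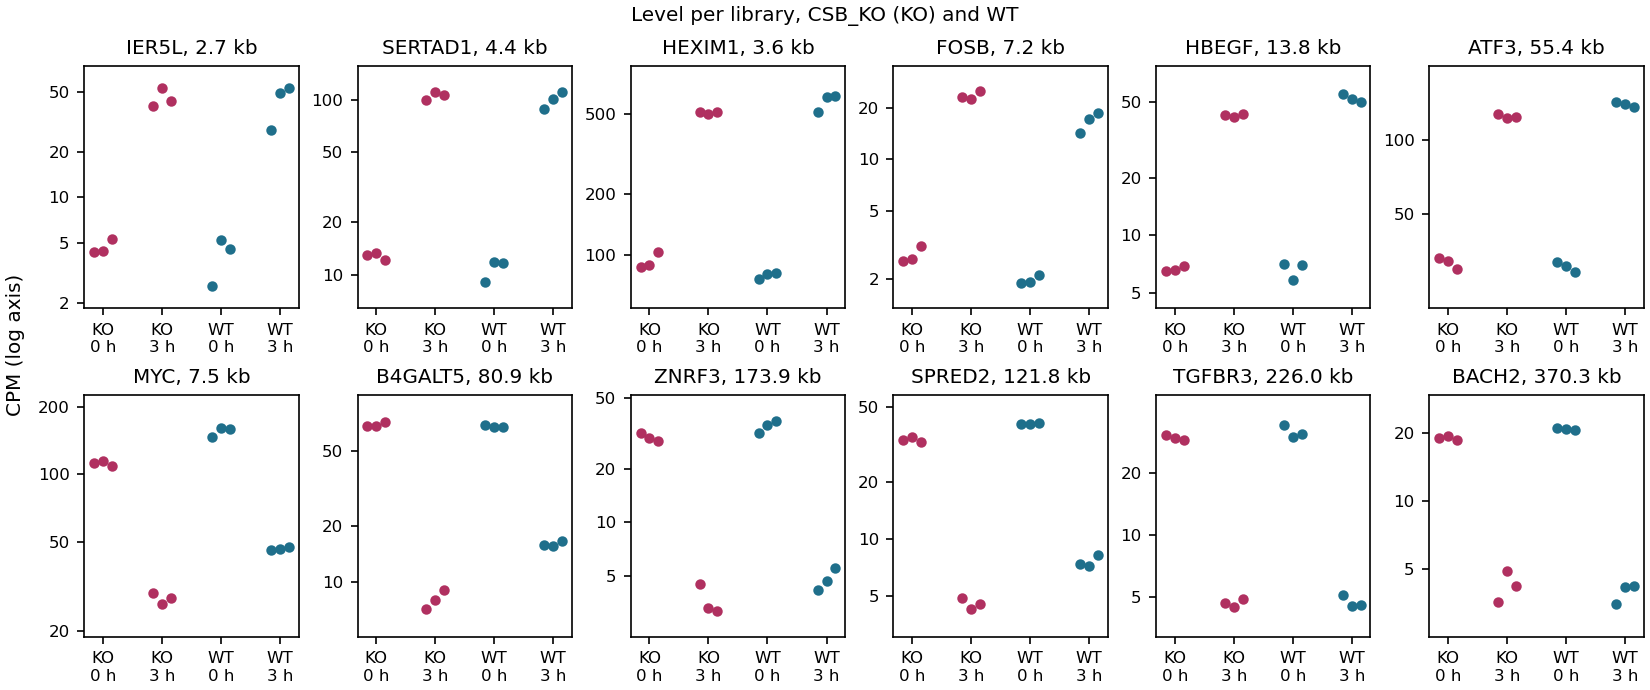
Level in CPM on log axes in each library of CSB_KO (KO, red) and WT (blue) at 0 h and 3 h, for 6 genes that rose and 6 that fell in CSB_KO. The 0 h and 3 h libraries do not overlap in any of the 12 panels for CSB_KO, and B4GALT5 ends lower in CSB_KO (7.18 to 9.09 CPM) than in WT (15.5 to 16.7 CPM).

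Of genes above 30 kb, 1026, 262 and 72 rose in the 3 classes from short to long. Among those with a mean log2 CPM of at least 3, the largest rises follow. ATF3 (chromosome 1, 212565334 to 212620777, 55.4 kb), a stress transcription factor, went from 33.1, 32.2 and 29.8 CPM to 128, 122 and 124 CPM (1.97 ± 0.04; edgeR, adjusted p = 9.22e-45), and RSRP1, a serine and arginine rich protein gene that overlaps RHD, rose by 1.65 ± 0.05. IRF1, an interferon regulatory factor, rose by 1.51 ± 0.08, but its span of 68.3 kb in the table is 9.19 kb in GENCODE v29. MUC16 (chromosome 19, 8848844 to 9010390, 162 kb), a membrane mucin, rose from 13.7, 13.9 and 16.7 CPM to 40.6, 40.3 and 43.4 CPM (1.5 ± 0.16; edgeR, adjusted p = 1.36e-12). ANKRD36C rose by 0.93 ± 0.11, and the protease gene CTSV by 0.79 ± 0.06, with a span of 127 kb in the table and 9.97 kb in GENCODE v29. ANKRD36C has near relatives in its family, and its reads may be shared with them. Of 640 genes of 300 kb and over, 4 rose at least 2-fold, CUBN, TRPC6, CACNA1D and ENSG00000286192, all with a mean log2 CPM below 1 and named after their values were seen. The largest rises by the naming rule, which asks for a mean log2 CPM of at least 3, were those of the adhesion receptor ADGRV1 (42.0, 40.7 and 39.0 CPM to 71.1, 63.5 and 64.0 CPM, 0.71 ± 0.08), the calsyntenin CLSTN2 (0.57 ± 0.10) and the nuclear envelope protein SYNE2 (0.51 ± 0.09). ADGRV1 and SYNE2 overlap LYSMD3 and ESR2 in the table, so their reads are uncertain.

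**Figure D4:**
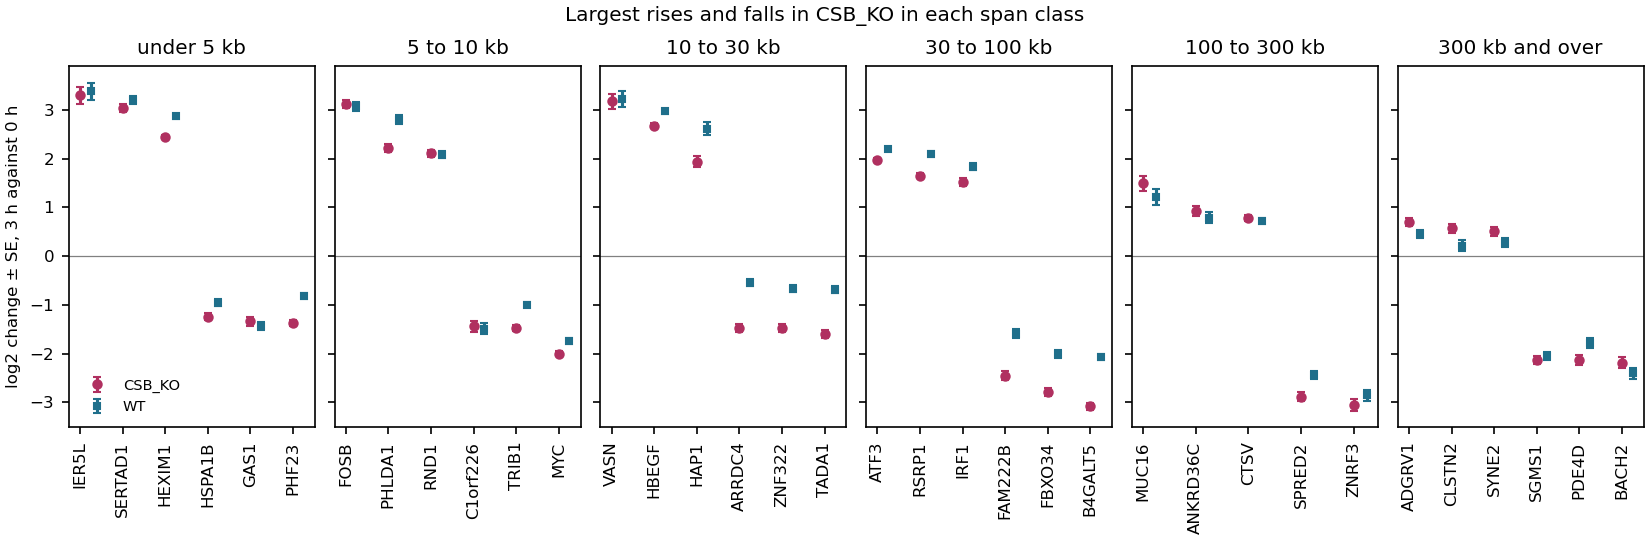
Log2 change ± SE at 3 h in CSB_KO (circles) and WT (squares) for the largest rises and falls in CSB_KO among called genes with a mean log2 CPM of at least 3 in each class of gene span (3 each way, and 2 falls at 100 to 300 kb). Rises shrink from 3.30 (IER5L) under 5 kb to 0.71 (ADGRV1) at 300 kb and over, and the deepest fall is -3.08 (B4GALT5) at 30 to 100 kb.

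Gene lists drawn up from general knowledge, but with earlier results of these data known, were then read beside the span of their members. The counts below are out of the members tested, and over all genes 32.0% rose and 29.3% fell. Of members named here, MEPCE, CUL4A, GTF2H3, POLR2C, POLR2B, RAD9A, XRCC3, REV1, REV3L, DDIT3, HSP90AA1, KMT2E, NDUFA2 and CENPA overlap another gene of the table, and their reads are uncertain for that reason. Immediate early genes, which respond to stimuli without new protein synthesis, rose in 21 of 27 and fell in 2, with a median of 0.89 and of 0.56 after subtraction of the span class medians. IER5L and FOSB are members. The 2 that fell were MYC and the nuclear receptor gene NR4A3, which went from 2.73, 2.34 and 2.07 CPM to 1.31, 2.11 and 1.53 CPM (-0.53 ± 0.15) with overlapping libraries. Of 16 feedback inhibitors of ERK and stress kinases 7 rose and 5 fell. Here SPRY4 rose from 5.91, 7.21 and 7.12 CPM to 18.3, 22.1 and 18.7 CPM (1.54 ± 0.09) and the phosphatase gene DUSP1 from 24.97, 25.9 and 24.8 CPM to 53.4, 53.9 and 48.7 CPM (1.04 ± 0.05), while SPRED1, of 104 kb, fell from 21.2, 20.2 and 17.2 CPM to 4.09, 3.96 and 3.61 CPM (-2.33 ± 0.12). Transcription factors of the KLF, ID, SNAI and SOX families rose in 9 of 20 and fell in 8, or 6 and 9 with library totals only. Their median was 0.13, and -0.30 relative to span. SNAI1, a repressor of E-cadherin, rose from 1.98, 2.66 and 1.75 CPM to 15.8, 19.7 and 19.9 CPM (3.05 ± 0.12; edgeR, adjusted p = 1.01e-30), and SNAI2, at 13 to 35 counts per library at 0 h and 27 to 59 at 3 h, by 2.12 ± 0.28. KLF13 and KLF9 changed by -1.28 ± 0.08 and -1.14 ± 0.07.

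The 22 listed receptors, mediators and regulators of TGF beta and BMP signalling were all called lower, by -0.26 for the receptor TGFBR1 to -2.66 for the coreceptor TGFBR3, at a median of -1.32, and of -1.13 relative to their span classes. TGFBR3 (chromosome 1, 91680343 to 91906335) fell from 30.4, 29.7 and 28.9 CPM to 4.68, 4.51 and 4.90 CPM (-2.66 ± 0.09; edgeR, adjusted p = 8.19e-34), and the BMP receptor BMPR1A from 47.7, 48.5 and 50.4 CPM to 8.87, 9.01 and 7.79 CPM (-2.51 ± 0.08). In WT 21 of the 22 fell and 1 rose, with a median of -1.28. The members span 31.1 to 400.5 kb and were listed with earlier results of these data known. Wnt pathway genes fell in 15 of 26 and rose in 5 (3 with library totals only), at a median of -0.38. Beside ZNRF3 the transcription factor TCF7L2 fell from 33.0, 33.1 and 37.8 CPM to 7.89, 5.998 and 5.87 CPM (-2.40 ± 0.11), while the short receptor gene FZD7 rose by 0.76 ± 0.06 and DVL2 by 0.38 ± 0.07. Histone lysine methyltransferases and demethylases fell in 24 of 33, at a median of -0.62 and of -0.35 relative to span. KMT2E went from 53.9, 55.1 and 57.4 CPM to 14.2, 12.95 and 14.96 CPM (-1.98 ± 0.09) and KDM6A from 66.2, 64.0 and 65.5 CPM to 25.1, 25.7 and 23.2 CPM (-1.40 ± 0.06). The 1 member that rose, KMT2D (0.28 ± 0.12), lost its call when any 1 CSB_KO library was left out. Receptor protein phosphatases and adhesion genes are far longer, with a median span of 410 kb. Of 22 tested, 12 fell and 2 rose, at a median of -0.21 and of 0.06 relative to span. PTPRJ and NRXN3 changed by -1.39 ± 0.09 and -1.43 ± 0.11, and GPC3, which spans 451 kb, rose from 19.9, 20.03 and 19.7 CPM to 25.5, 24.8 and 26.1 CPM (0.36 ± 0.07).

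Repair genes went in both directions. Of the 10 transcription-coupled repair factors, which include the inactivated ERCC6, 6 rose and 1 fell, at a median of 0.26 and of 0.23 relative to span. Without replicate 2 at 0 h, where ERCC6 lost its call, 5 rose and 1 fell. With library totals only 4 rose and 1 fell, at a median of 0.14, and with upper quartile scaling 9 rose and 0 fell. XAB2, which binds XPA, rose from 76.4, 80.2 and 76.3 CPM to 115, 119.8 and 123 CPM (0.62 ± 0.09; edgeR, adjusted p = 7.70e-08) and the elongation factor ELOF1 by 0.32 ± 0.08. The fall of CUL4A, the scaffold of the CSA ubiquitin ligase, was -0.10 ± 0.04 and lost its call without replicate 1 at 0 h and without replicate 1 or 2 at 3 h. Global genome repair genes rose in 11 of 18 and fell in 2, counts that became 6 and 4 with library totals only. Relative to span their median was 0.11. CETN2, a partner of the lesion sensor XPC, rose by 0.53 ± 0.09, while RAD23B and the nuclease gene ERCC4 changed by -0.38 ± 0.05 and -0.49 ± 0.08. Of the 10 TFIIH subunits, the helicase and kinase complex shared by repair and transcription, 3 rose (GTF2H3, GTF2H4 and GTF2H5) and 3 fell (CDK7, GTF2H1 and ERCC3), while 5 fell and the rises lost their calls with library totals only. CDK7, its kinase, fell from 27.1, 24.1 and 25.9 CPM to 11.7, 11.1 and 12.6 CPM (-1.12 ± 0.08; edgeR, adjusted p = 5.58e-18). Genes of the ATR checkpoint fell in 9 of 16 and rose in 4, at a median of -0.24. The ATR activator ETAA1 fell from 19.5, 19.8 and 20.3 CPM to 10.01, 9.54 and 12.01 CPM (-0.92 ± 0.10), whereas its change in WT was 0.01 ± 0.09 (edgeR, adjusted p = 5.26e-07 for the difference). WEE1, which holds cells before mitosis, changed by -0.84 ± 0.06, and the clamp subunit gene RAD9A rose by 0.66 ± 0.08. Homologous recombination and Fanconi genes fell in 11 of 20 and rose in 4 (2 with library totals only), with BARD1 at -1.19 ± 0.10, FANCM at -0.99 ± 0.08 and XRCC3 at 0.46 ± 0.09. Of 13 translesion synthesis genes 6 fell and 2 rose. Among them REV1, of 89.6 kb, fell from 29.8, 29.2 and 30.7 CPM to 10.9, 10.9 and 9.37 CPM (-1.52 ± 0.07). REV3L, of 185 kb, fell from 56.8, 56.1 and 59.3 CPM to 21.6, 20.7 and 19.5 CPM (-1.48 ± 0.07).

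Subunits of RNA polymerase II rose in 10 of 12 and fell in 1, at a median of 0.46 and of 0.11 relative to span. POLR2A, its largest subunit, rose from 375, 375 and 377 CPM to 616, 640.3 and 649 CPM (0.76 ± 0.10; edgeR, adjusted p = 1.94e-09) and spans 30.3 kb, and POLR2C rose by 0.64 ± 0.04. POLR2B, of 53.4 kb, changed by -0.35 ± 0.05. Factors of P-TEFb and pause control fell in 8 of 18 and rose in 6, at a median of -0.04 that turned positive (0.03) with upper quartile scaling. The elongation factor ELL fell from 25.4, 25.9 and 23.95 CPM to 8.63, 10.8 and 9.59 CPM (-1.38 ± 0.09), and the scaffold AFF1 from 43.3, 42.1 and 43.9 CPM to 20.9, 18.6 and 23.0 CPM (-1.05 ± 0.08), while the 7SK capping enzyme MEPCE rose by 0.52 ± 0.06. Splicing regulators of the SR and hnRNP families rose in 15 of 24 and fell in 3, or 9 and 6 with library totals only. Their median was 0.20, and -0.07 relative to span. SRSF4 changed by -0.86 ± 0.05 and HNRNPH1 by 0.36 ± 0.05.

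In each of 4 stress response lists more members rose than fell with TMM scaling. Relative to span, however, the median was 0.07 for the unfolded protein response, -0.06 for p53 targets and -0.03 for heat shock genes. Of 21 targets of ATF4, the factor of the integrated stress response, 16 rose and 3 fell, at a median of 0.43 and of 0.30 relative to span. DDIT3, the proapoptotic factor CHOP, went from 6.31, 7.19 and 6.74 CPM to 24.8, 23.99 and 25.5 CPM (1.87 ± 0.09; edgeR, adjusted p = 9.52e-27), while VLDLR and the cystine transporter SLC7A11 changed by -1.23 ± 0.09 and -0.55 ± 0.09. Genes of the unfolded protein response rose in 13 of 17 and fell in 3, led by DNAJB9 at 0.87 ± 0.10 and MANF at 0.67 ± 0.07, with the 62.3 kb SEL1L at -0.72 ± 0.06. Targets of p53, whose function HEK293 cells are known to restrain through adenoviral proteins, rose in 14 of 28 and fell in 8, at a median of 0.06, while 12 rose and 12 fell at a median of -0.06 with library totals only. GADD45A rose from 27.3, 27.4 and 29.1 CPM to 113, 117 and 121 CPM (2.07 ± 0.05; edgeR, adjusted p = 2.94e-38). The phosphatase gene PPM1D and SESN1, of 66.1 and 111 kb, fell from 41.2, 38.8 and 41.8 CPM to 14.4, 13.2 and 14.01 CPM (-1.55 ± 0.05) and from 48.7, 48.4 and 49.0 CPM to 19.4, 17.3 and 18.6 CPM (-1.40 ± 0.06). Both fell less in WT, at -0.78 ± 0.05 and -0.72 ± 0.06 (edgeR, adjusted p = 1.15e-12 and 1.75e-08 for the differences). Heat shock genes rose in 8 of 15 and fell in 6, or 5 and 7 with library totals only, with HSP90AA1 at 0.41 ± 0.09 and HSPB1 at 0.58 ± 0.10.

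Compact housekeeping genes rose almost throughout. All 40 ribosomal protein genes were called higher, with log2 changes of 0.43 to 0.68 and a median of 0.56, against 0.37 for their span classes. Ribosomal protein genes have many processed copies that may share their reads. RPL10A went from 559, 571 and 563 CPM to 898, 903 and 913 CPM (0.68 ± 0.06). Of 34 nuclear genes of oxidative phosphorylation, 33 rose, at a median of 0.48 and of 0.21 relative to span. The complex I subunit NDUFA2 rose by 0.70 ± 0.07. Genes of the mitochondrial genome, which is transcribed by its own polymerase, did not follow. Of 13, 2 fell and 11 were not called by edgeR in CSB_KO, at a median of -0.10, whereas 10 rose in WT at a median of 0.44, and 6 were called lower in CSB_KO than in WT in the test of the difference (4 without WT replicate 1 at both times). MT-CYB, of complex III, went from 2147, 2222 and 2089.6 CPM to 1550.4, 1302 and 1639 CPM (-0.52 ± 0.16), and MT-ND5, of complex I, from 2358, 2440.1 and 2409 CPM to 1926, 1528 and 2023 CPM (-0.40 ± 0.18). MT-ND5 lost its call when any 1 CSB_KO library other than replicate 3 at 3 h was left out. The median became 0.06, with 1 gene called higher and 1 lower, without replicate 2 at 3 h, and 6 genes fell with library totals only, while 2 rose and 1 fell with upper quartile scaling. The share of all counts from this genome was 3.28%, 3.43% and 3.31% at 0 h and 3.07%, 2.64% and 3.32% at 3 h in CSB_KO, groups that overlap (exact two-sided permutation test, p = 0.3). In WT it went from 3.30% ± 0.182 to 4.27% ± 0.0717 (SD, n = 3). With the 0 h mean of each line subtracted, the changes of the 2 lines did not overlap and differed by -1.30 percentage points (exact two-sided permutation test, p = 0.1, the smallest possible). The spread at 0 h does not enter this p-value.

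Cell cycle lists went apart, with medians relative to span of 0.13 for G1/S genes and -0.41 for mitotic genes. Of 28 G1/S genes, 19 rose and 2 fell (4 with library totals only), at a median of 0.26, with the transcription factor E2F1 going from 107, 109.8 and 107 CPM to 169, 185 and 175 CPM (0.71 ± 0.07; edgeR, adjusted p = 1.71e-12) and the ribonucleotide reductase subunit RRM2 rising by 0.62 ± 0.04. E2F3, of 91.8 kb, fell from 105, 104 and 110.0 CPM to 23.2, 22.8 and 23.0 CPM (-2.21 ± 0.06; edgeR, adjusted p = 1.66e-38), and fell less in WT (-1.42 ± 0.05; edgeR, adjusted p = 3.13e-11 for the difference). Of 28 mitotic genes, 19 fell and 2 rose (4 with upper quartile scaling). Their median was -0.39 although their span classes had a median of 0.21. The kinesin KIF23 fell from 182, 180.1 and 184 CPM to 67.3, 55.9 and 58.3 CPM (-1.59 ± 0.06) and the centromeric histone CENPA from 14.7, 15.7 and 14.1 CPM to 5.28, 5.39 and 5.38 CPM (-1.48 ± 0.09), while BIRC5 rose by 0.31 ± 0.05 and UBE2C by 0.17 ± 0.06, a call that was lost with library totals only.

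**Figure D5:**
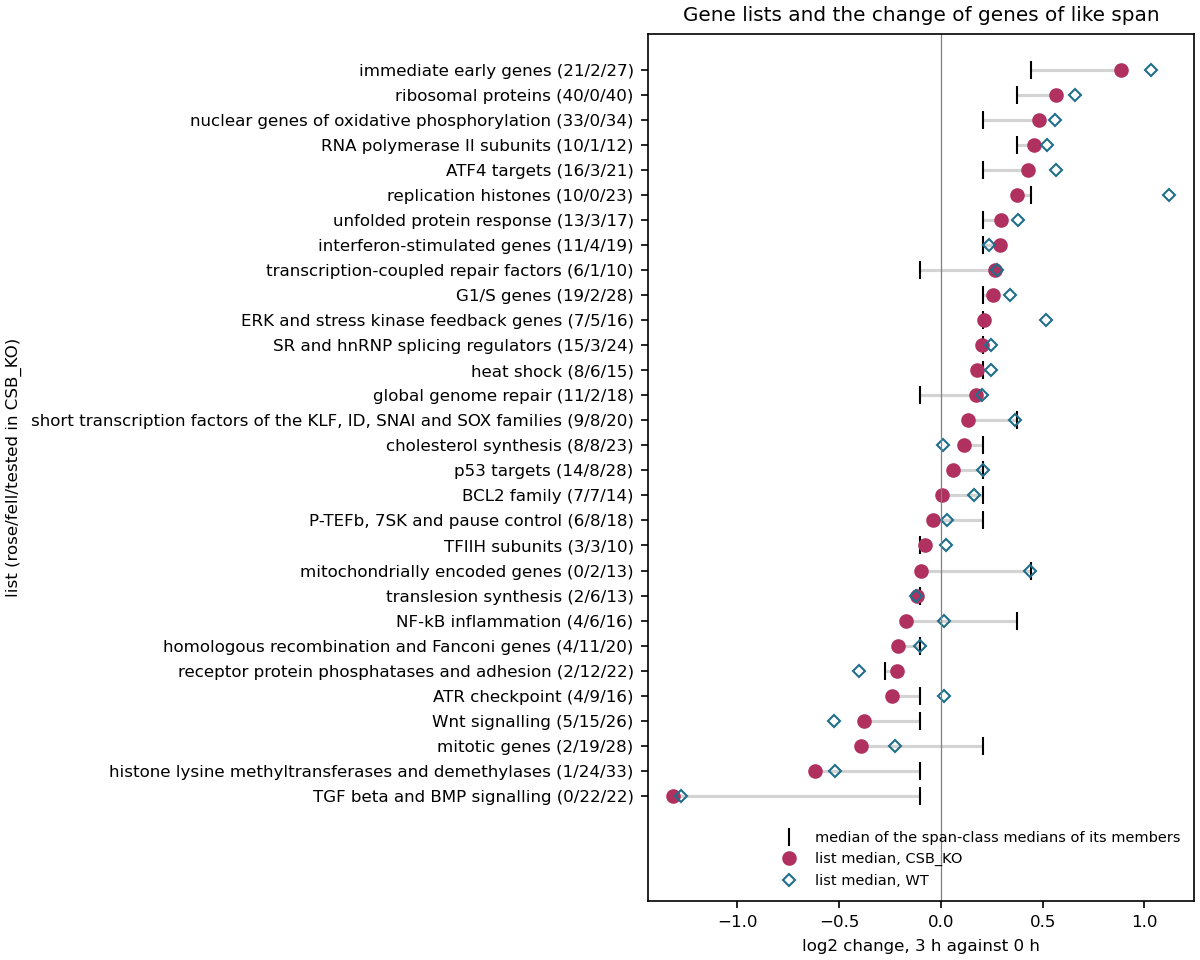
Median log2 change at 3 h of each gene list in CSB_KO (circles) and WT (diamonds), with the median of the span-class medians of its members (black ticks); numbers after each name are members that rose, fell and were tested in CSB_KO. TGF beta and BMP signalling lies at -1.32 with its tick at -0.10, and mitotic genes at -0.39 with theirs at 0.21.

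The change in CSB_KO was then set against that in WT in 1 test of the difference per gene. In WT, 9653 genes were called (62.4%), of which 5192 rose (33.6%) and 4461 fell (28.8%), by at least 2-fold in 5.16% and 7.45% of all genes tested, and 4032 genes were called higher (26.1%) and 3796 lower (24.5%) in both lines. The change differed between the lines for 1513 genes (9.78%), with 229 higher in CSB_KO (1.48%) and 1284 lower (8.3%), and 78 of these differed by at least 2-fold (0.504%), 17 of them higher (0.11%) and 61 lower (0.394%). Blocking on replicate number gave 362 higher and 1544 lower, and 45 of 640 higher at 300 kb and over. More genes were lower than higher in each setting, and the size of the imbalance depends on the scaling, as 419 were higher and 895 lower with upper quartile scaling and 455 and 719 with library totals only. The total depends on the libraries, with 220 calls in a fit of the 12 libraries alone, 1173 without WT replicate 1 at both times, 2270 without WT replicate 2 at 3 h and 2248 without WT replicate 3 at 3 h. Genes lower in CSB_KO were most frequent at 10 to 30 kb, with 531 of 4256 (12.5%), then at 30 to 100 kb with 462 of 4975 (9.29%), and least frequent at 300 kb and over with 9 of 640 (1.41%). Genes higher in CSB_KO were most frequent among the longest, with 37 of 640 (5.78%) and 86 of 2475 at 100 to 300 kb (3.47%). Without WT replicate 1 these became 8 of 640 and 42 of 2475, while the lower calls at 10 to 30 kb became 430 of 4256. The median span was 25.4 kb for genes lower and 113 kb for genes higher in CSB_KO.

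Among called genes with a mean log2 CPM of at least 3, the 3 largest differences each way follow. EGR1 (chromosome 5, 138465479 to 138469303), the immediate early transcription factor whose promoter is printed above, went from 29.01, 27.9 and 29.3 CPM to 57.9, 56.6 and 58.3 CPM in CSB_KO (1.00 ± 0.06; edgeR, adjusted p = 3.88e-21). In WT it stood at 44.8, 53.6 and 52.1 CPM at 0 h and 48.9, 52.1 and 54.4 CPM at 3 h (0.04 ± 0.06), so that CSB_KO lay below all WT libraries at 0 h and above all of them at 3 h, and the difference in change was 0.96 ± 0.09 (edgeR, adjusted p = 2.83e-12). ID2, an inhibitor of basic helix-loop-helix factors, rose from 42.7, 42.7 and 43.0 CPM to 60.7, 56.7 and 53.1 CPM in CSB_KO and from 24.8, 22.7 and 23.8 CPM to 95.0, 67.1 and 65.3 CPM in WT. It began higher and ended lower in CSB_KO, and the change differed by -1.26 ± 0.09 (edgeR, adjusted p = 2.07e-15). EFNB2, a membrane ligand of Eph receptors, fell from 135, 135 and 137 CPM to 41.0, 39.4 and 39.1 CPM in CSB_KO and from 69.3, 71.5 and 68.9 CPM to 45.9, 48.8 and 47.0 CPM in WT, a difference in change of -1.20 ± 0.07 (edgeR, adjusted p = 7.59e-20). Here too the untreated lines lay apart, with all CSB_KO libraries above WT at 0 h and below it at 3 h. MFSD4B, a sugar transporter gene, changed by 0.25 ± 0.10 in CSB_KO and -0.55 ± 0.10 in WT. Its span in the table overlaps REV3L, so its reads are uncertain, and without replicate 3 at 3 h its rise in CSB_KO was 0.09 and not called. ARHGEF17, a guanine nucleotide exchange factor, was not called in CSB_KO (-0.03 ± 0.12; edgeR, adjusted p = 0.831) and fell in WT (-0.63 ± 0.12). The difference for ARHGEF17 (0.59 ± 0.17; edgeR, adjusted p = 0.0138) was not called without WT replicate 1 at 3 h (0.41) or WT replicate 3 at 0 h (0.51). SULT1A3, a sulfotransferase gene with a near-identical copy, rose by 0.80 ± 0.21 in CSB_KO and 1.99 ± 0.23 in WT, and its difference lost the call without WT replicate 3 at 0 h (-0.89). By list, 10 of 20 genes of the KLF, ID, SNAI and SOX families, 6 of 15 heat shock genes, 8 of 21 ATF4 targets, 6 of 16 feedback inhibitors of ERK and stress kinases, 9 of 28 G1/S genes and 8 of 27 immediate early genes were called lower in CSB_KO than in WT, against 8.3% of all genes. Without WT replicate 1 at both times these counts were 9, 6, 8, 5, 8 and 7, and 1034 of all 15470 genes were called lower. With all libraries, other lists ranged from 6 of 13 mitochondrially encoded genes to 0 of 22 receptor phosphatase and adhesion genes. Subunits of RNA polymerase II had 0 of 12 and transcription-coupled repair factors 0 of 10. All these counts rest on the spread shared by all 72 libraries. In the fit of the 12 libraries alone, 205 of 15470 genes were called lower, and counts by list in that fit are not given.

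The DMSO libraries of the same line, which share the 0 h controls and whose labelled times may count from irradiation or from addition of DMSO, give the values that followed. At 4 h 9860 genes were called against 0 h (63.7%), with 33.6% of genes higher and 30.2% lower and, at 2-fold or more, 4.38% and 8.39%. At 20 h 12201 were called (78.9%), with 38.3% higher and 40.5% lower. Class medians from short to long were 0.51, 0.42, 0.24, -0.12, -0.37 and -0.34 at 4 h and 0.82, 0.66, 0.43, -0.25, -1.15 and -1.45 at 20 h. The long minus short measure stood at -0.0545 ± 0.0127 at 4 h and -0.867 ± 0.0113 at 20 h (SD, n = 3), against 0.0803 ± 0.0567 at 3 h. Among genes that fell at 3 h, B4GALT5 had log2 changes of -2.96 at 4 h and -0.09 at 20 h, EFNB2 of -1.69 and -0.01, and FAM222B of -2.21 and -0.25. The same values were -2.72 and -2.10 for TGFBR3, -1.62 and -2.16 for REV3L, and -2.58 and -2.96 for BMPR1A. Among the risers HBEGF had 2.74 and 4.58, HEXIM1 2.55 and 3.42, and MUC16 1.35 and 0.51.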

How the data were processed

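The submitters' processing notes name STAR, RSEM, deepTools 3.5.1 and the GRCh38 build; the annotation release and counting by strand are not given in the sources used here. The values are expected counts per gene, which the authors deposited unnormalised for all 72 libraries of polyadenylated RNA (36.5 to 212.9 M counts each), and they were rounded to whole numbers. Genes were filtered with filterByExpr (minimum count 10, minimum total 15), which left 15470 of 19324, scaled by TMM and fitted over 24 groups with edgeR's quasi-likelihood test (edgeR 4.0.16, limma 3.58.1, R 4.3.3; 48 residual degrees of freedom), so that all groups share the estimate of spread. The fit was also run on simulated counts with known changes, drawn with the same dispersion for every gene and independently between libraries. That run cannot show how the test behaves with replicates that stand apart, such as WT replicate 1. Adjusted p-values are Benjamini-Hochberg over all tested genes. Levels per library used log2 of CPM plus 0.1 for the long minus short measure, with exact two-sided permutation tests over libraries.

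Gene span counts all bases from start to end in the coordinates of the deposited table, and a span-adjusted change is the log2 change less the median of its class. Named genes are ERCC6, the 3 largest rises and 3 largest falls per span class and the 5 largest span-adjusted changes each way (called, mean log2 CPM of at least 3, groups without overlap), the 3 largest differences from WT each way, and up to 2 called members each way per list. A few genes that meet this rule are not reported here. Members and lists were chosen with earlier results of these data known. Alternatives were RLE, upper quartile and library total scaling, no filter, DESeq2 1.42.0, a fit of the compared libraries only, a replicate block, other span boundaries and leaving out each library. Replicate numbers were checked for pairing. Deviations of same-numbered libraries at 0 h and 3 h correlated at 0.115, 0.124 and 0.100 in CSB_KO and at 0.797, 0.626 and 0.718 in WT over 10153 genes, so the numbers were taken to pair libraries, from the data and not from the labels. In CSB_KO different numbers gave -0.0878 to -0.0282. Deviations were taken from the mean of each group of 3, so these negative values follow from the positive ones and add no separate evidence. In WT, where replicate 1 stands apart, the different numbers 2 and 3 gave 0.712 and 3 and 2 gave 0.664, so the pairing of those is not resolved.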

Additional observations from a re-analysis of the deposited data

Results flagged for a closer look

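The 3 h change differed between CSB_KO and WT by edgeR's test of the difference itself for 1513 genes, which is what singled out the values here. The difference (CSB_KO minus WT, log2) was 0.96 for EGR1, 0.80 for MFSD4B, 0.59 for ARHGEF17 and 0.95 for ERCC6, the gene inactivated in the line. It was -1.26 for ID2, -1.20 for EFNB2 and -1.19 for SULT1A3. For EGR1, ID2, EFNB2, SULT1A3 and ERCC6 the untreated libraries of the 2 lines did not overlap. Groups hold 3 libraries, so single libraries were not tested as outliers.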

How the results depend on the processing

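The number of genes called in CSB_KO stayed within 1.5 times of 9485 under all alternatives run, and was 8804 to 9011 when 1 CSB_KO library was left out. The replicate block gave 9783 calls in CSB_KO, 9451 of them shared, and 1906 differences from WT, of which 362 were higher in CSB_KO (by class 25, 26, 63, 83, 120 and 45, against 16, 9, 31, 50, 86 and 37). From short to long, the class medians were 0.519, 0.450, 0.284, -0.027, -0.223 and -0.201 with upper quartile scaling, 0.320, 0.252, 0.0863, -0.226, -0.421 and -0.399 with library totals only, 0.175, 0.275, 0.149, -0.0629, -0.270 and -0.217 with no filter, and 0.403, 0.335, 0.170, -0.142, -0.337 and -0.312 in the fit of the compared libraries only. RLE size factors and DESeq2 each gave 0.221 at 10 to 30 kb. Leaving out 1 CSB_KO library gave 0.204 to 0.216 at 10 to 30 kb and -0.286 to -0.254 at 300 kb and over. With boundaries at 3, 8, 20, 60 and 200 kb, which hold other genes, the classes after the shortest had 0.404, 0.285, 0.0149 and -0.246, so that the class of 20 to 60 kb, set against that of 30 to 100 kb, had the other sign. With 200 kb and over against under 20 kb the long minus short difference was -0.753. Genes higher in CSB_KO than in WT numbered 419 with upper quartile scaling, 455 (719 lower) with library totals only, 114 with no filter, 139 without WT replicate 1 at both times and 132 to 491 when 1 library was left out (424 without WT replicate 1 at 0 h). All differences then numbered 1130 to 2270 and those of at least 2-fold 65 to 120, and the fit of the 12 libraries gave 220 (15 higher, 205 lower, 16 of 2-fold). ARHGEF17 in CSB_KO, not called, turned to 0.0437 with upper quartile scaling and lay at -0.0773 to 0.00116 when 1 CSB_KO library was left out. Of 1820 values of named genes under alternatives, 1765 kept direction and call, 53 in 13 genes lost the call and 2 turned. The cause was not tested. Depth limits genes of few counts, such as SNAI2.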

Other observations

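Some lists fixed beside those above split by member in CSB_KO. Genes of the BCL2 family rose in 7 of 14 and fell in 7, where the proapoptotic PMAIP1 (NOXA) went from 252, 243 and 242 CPM to 446, 397 and 403 CPM (0.76 ± 0.08) and the antiapoptotic BCL2, of 197 kb, from 21.5, 21.8 and 23.0 CPM to 10.5, 10.2 and 8.98 CPM (-1.16 ± 0.07). BIK rose by 0.87 ± 0.16 and BMF, another proapoptotic member, had -1.10 ± 0.10. The median of this list was 0.00 and became -0.12 with library totals only. Genes of cholesterol synthesis and uptake rose in 8 of 23 (5 with library totals only, 12 with upper quartile scaling) and fell in 8. Here MVD and FDPS, enzymes of the mevalonate route, rose by 0.59 ± 0.10 and 0.49 ± 0.05.

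Genes of NF-kB signalling rose in 4 of 16 and fell in 6. NFKB2 rose by 0.60 ± 0.08 and NFKBIB, which overlaps SIRT2 in the table, by 0.48 ± 0.07, and REL fell from 15.1, 16.2 and 15.3 CPM to 5.59, 5.04 and 5.18 CPM (-1.56 ± 0.17). The number that rose was 2 with library totals only and when replicate 2 at 0 h, or replicate 2 or 3 at 3 h, was left out. Of 19 interferon-stimulated genes tested 11 rose and 4 fell, and the 4 became 2 without replicate 2 at 3 h. Several had few counts, as OASL with 7, 3 and 3 counts at 0 h and 2, 12 and 13 at 3 h. Replication histone genes, whose messages lack a poly(A) tail as a rule and which have near-identical copies, rose in 10 of 23, a number that was 7 without replicate 1 at 0 h and 15 without replicate 3 at 0 h. H2AC13 went from 2.32, 2.54 and 2.49 CPM to 5.47, 4.37 and 5.07 CPM (1.01 ± 0.17).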
